A study of Mus musculus with 88 samples.

Results

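The 10 genes described here encode the serotonin receptors Htr1a, Htr1b, Htr1d, Htr1f, Htr2a, Htr2c, Htr4, Htr5a, Htr6 and Htr7, which couple to G proteins. They were found by symbol among the 55487 genes of a count table, and all 10 passed the filter on low counts. RNA of the mouse nucleus accumbens, a ventral striatal region of reward and motivation, was counted in 87 libraries that fall into 12 groups. In every mouse, herpes simplex viruses carried a nuclease-dead Cas9 joined to CREB(S133D), a constitutively active form of the transcription factor CREB, and a guide RNA. The guide was either directed to Fosb (g11, here the Fosb guide) or non-targeted (gNT, here the control guide).

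All mice had a C57BL/6 background and the tissue was taken 6 days after surgery. Their age is not stated in the labels. The D1 arms were D1-Cre mice given Cre-dependent virus, with 8 control and 6 targeted libraries of females and 4 control and 7 targeted of males. The D2 arms were D2-Cre mice given Cre-dependent virus, with 8 control and 8 targeted libraries of females and 8 control and 7 targeted of males. The D1-D2 arms were again D1-Cre mice, but with virus that does not need Cre. They had 8 control and 12 targeted libraries of females and 7 control and 4 targeted of males. Groups of mice named below stand for their libraries. D1-Cre and D2-Cre lines express the recombinase Cre in neurons of the D1 or the D2 dopamine receptor, so the D1-D2 arms share the strain of the D1 arms and differ from them in the virus. Controls carried the activator too, so the guides were compared among mice that all received it. The RNA came from whole dissected tissue, and the infected cells were not separated from the rest. Fewer cells of a type and less RNA per cell therefore cannot be told apart at any receptor described here.

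Serotonin reaches the accumbens in axons from the raphe nuclei of the brainstem, and the cells of the accumbens read it through this receptor family. Htr1a, Htr1b, Htr1d, Htr1f and Htr5a couple to Gi/o proteins, which lower cyclic AMP. Htr2a and Htr2c couple to Gq proteins, which raise inositol phosphates and calcium. Htr4, Htr6 and Htr7 couple to Gs proteins, which raise cyclic AMP, the signal that leads to CREB. Htr1b is known as a receptor on the terminals of striatal output neurons, Htr1a and Htr2a as receptors of cortical neurons, and Htr2c as the member whose messenger RNA is recoded by the editing enzymes Adar and Adarb1.

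Bases upstream of the RefSeq start of 5 receptor genes are printed because these genes carry the patterns across libraries described further on. Htr1b (chr9:81633833-81634082, minus strand) and Htr1d (chr4:136423274-136423523, plus strand) varied together, Htr1a (chr13:105443443-105443638, plus strand) and Htr5a (chr5:27841697-27841946, plus strand) formed a second pair, and Htr2c (chrX:146962263-146962512, plus strand) was the most abundant. Sequences are from RefSeq on GRCm38.p6, 5′ to 3′, with any base inside the gene's span in the GENCODE annotation removed. The Htr5a window ends at 27841946, some way before the GENCODE start of that gene at 27842149. Capitals mark a match to the AP-1 motif TGANTCA, the site of FosB and its Jun partners.
Htr1b: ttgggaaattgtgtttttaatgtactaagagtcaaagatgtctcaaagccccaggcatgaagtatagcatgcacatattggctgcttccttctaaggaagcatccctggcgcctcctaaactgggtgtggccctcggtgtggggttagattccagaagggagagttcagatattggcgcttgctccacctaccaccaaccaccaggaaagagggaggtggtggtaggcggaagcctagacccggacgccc
Htr1d: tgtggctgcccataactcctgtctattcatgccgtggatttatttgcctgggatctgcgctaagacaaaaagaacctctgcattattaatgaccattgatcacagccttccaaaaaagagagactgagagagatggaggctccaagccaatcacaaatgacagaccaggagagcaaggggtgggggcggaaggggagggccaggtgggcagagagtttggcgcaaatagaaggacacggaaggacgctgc
Htr1a: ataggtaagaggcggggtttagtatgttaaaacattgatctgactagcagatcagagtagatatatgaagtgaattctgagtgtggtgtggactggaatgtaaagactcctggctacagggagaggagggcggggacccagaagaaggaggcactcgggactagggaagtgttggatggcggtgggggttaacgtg
Htr5a: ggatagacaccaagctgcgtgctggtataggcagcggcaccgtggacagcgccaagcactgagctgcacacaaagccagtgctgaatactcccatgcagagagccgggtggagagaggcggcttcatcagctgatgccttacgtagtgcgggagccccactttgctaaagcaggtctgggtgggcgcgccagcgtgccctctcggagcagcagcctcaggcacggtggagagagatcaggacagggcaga
Htr2c: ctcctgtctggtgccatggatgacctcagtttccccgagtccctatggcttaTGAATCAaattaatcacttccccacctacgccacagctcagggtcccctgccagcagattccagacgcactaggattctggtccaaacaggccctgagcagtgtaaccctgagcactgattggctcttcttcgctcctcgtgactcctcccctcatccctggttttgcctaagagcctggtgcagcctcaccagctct

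Both strands were searched for the full cyclic AMP response element TGACGTCA, its 5-base core TGACG and the AP-1 motif TGANTCA, of which the core also lies inside the full element. Of 32851 promoters of RefSeq genes in the same table, 1.55% held the full element, 17.8% the core and 6.75% the AP-1 motif. The Htr2c window held 1 AP-1 match, and the windows of 9 receptors, Htr4 not among them, held no other match to these letters. The shares are for 250 bases. The windows of Htr7 (103 bases), Htr1f (180), Htr1a (196) and Htr2a (216) were shorter, so their lack of a match is not directly comparable with them. A match is a run of letters, not a measured binding site.

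Htr2c, which had the highest level of the 10, stood at 97.8 ± 26.9 CPM (SD, n = 87; lowest 44.2, median 94.1, highest 187). CPM, the usual unit of a gene's counts relative to the total of its library, were scaled by TMM, a factor that keeps most genes level between libraries. Htr1b followed at 35.4 ± 11.8 CPM (7.29, 34.6 and 72.1) and Htr2a at 28.5 ± 13.02 CPM (10.3, 25.03 and 64.8). Only 6.67% of the 25420 genes that passed the filter on low counts had a higher mean CPM than Htr2c.

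The Gs-coupled Htr4 was at 14.6 ± 6.86 CPM (lowest 1.61, median 13.2, highest 34.8), Htr7 at 6.03 ± 2.43 (2.67, 5.39 and 15.9) and Htr6 at 2.09 ± 0.789 (0, 2.06 and 4.59). The remaining Gi/o-coupled members lay close together, Htr5a at 7.79 ± 2.68 CPM (4.03, 7.08 and 18.9), Htr1a at 7.01 ± 5.001 (1.87, 5.77 and 25.6), Htr1d at 6.98 ± 2.00 (2.86, 6.77 and 14.7) and Htr1f at 4.75 ± 2.39 (1.61, 4.11 and 13.7). Htr1a was the most variable, with an SD of 71.4% of its mean. Htr6 had 0 counts in the female D2 targeted library 18432, where 3 counts would be worth 2.74 CPM. That library is among 4 of low complexity described below. Of the genes that passed the filter, 60.3% had a higher mean level than Htr6.

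Levels of different genes are comparable only per length. In CPM per kilobase of merged exons, the order was Htr2c 10.5, Htr1b 7.49, Htr2a 5.09, Htr4 2.97, Htr1d 2.18, Htr1f 1.84, Htr7 1.77, Htr1a 1.56, Htr5a 1.45 and Htr6 0.892. Neighbours in this order lay within 1 SD of each other except at both ends. Htr2c was above Htr1b in 69 of 87 libraries and Htr5a above Htr6 in 83 of 87. By the longest transcript Htr2c stood at 20.02 CPM per kilobase and Htr1b at 7.49. Htr2c was thus highest by both lengths, and the size of its lead depends on which exons are counted.

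On the mm10 build, Htr1b (ENSMUSG00000049511) spans chr9:81628291-81633828 on the minus strand and shares exonic bases with the antisense gene D430036J16Rik. The sources used here do not give the strand setting of the authors' counting. Reads in the shared exonic bases therefore cannot be assigned to Htr1b or to its antisense partner. These bases are a minor part of the 4724 exonic bases of Htr1b, and the rest of its exons are not shared. D430036J16Rik had a mean of 10.5 ± 4.22 CPM and varied with Htr1b across libraries (r 0.92, rho 0.95, group and batch means taken out). Htr2c spans chrX:146962513-147197277 on the plus strand and hosts small RNA genes in its introns, with 0 exonic bases shared. Htr1a is a gene of 1 exon block at chr13:105443639-105448122, and Htr5a lies at chr5:27842149-27855088, both on the plus strand. Htr4, the member with the largest difference between guides, lies at chr18:62324204-62496577 on the plus strand.

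**Figure D1:**
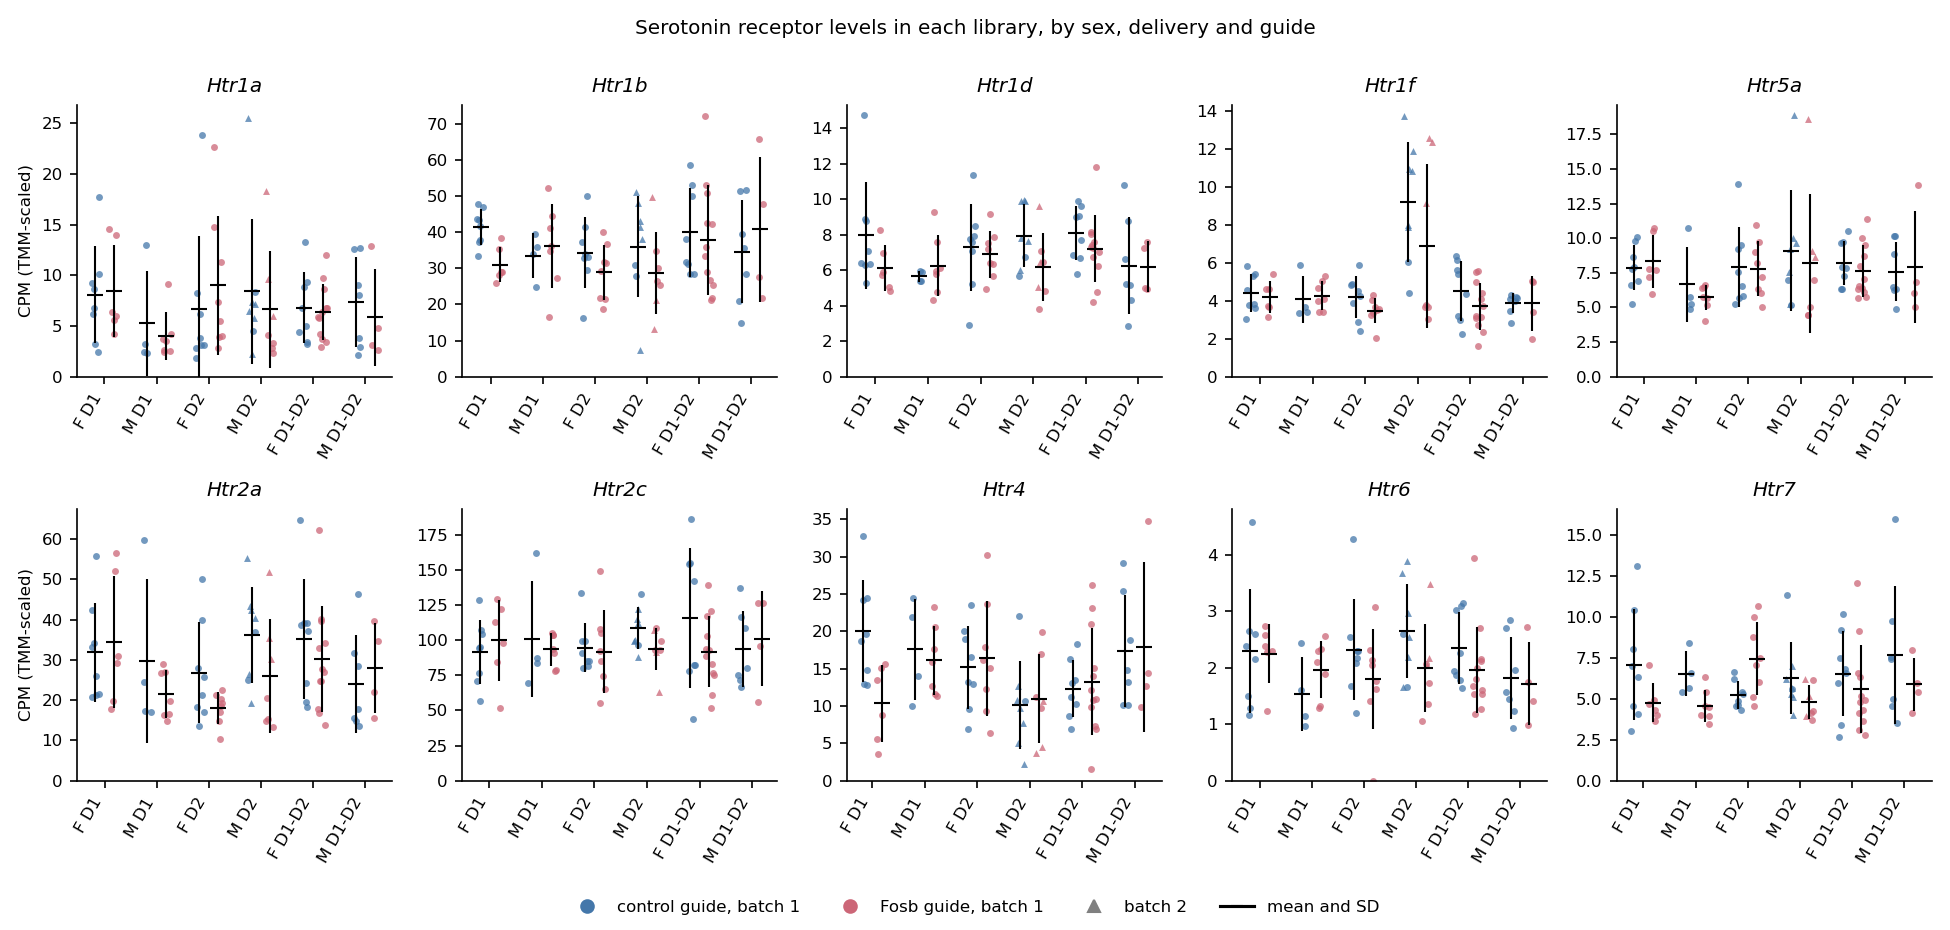
Each panel plots 1 receptor, with the arm on the x axis and TMM-scaled CPM on the y axis from 0, control guide and Fosb guide side by side. Points are libraries, triangles are sequencing batch 2, and bars give the mean and SD of each group. Groups overlap in most panels, and the triangles of the male D2 arm stand above the circles for Htr1f, where batch 2 ran from 7.89 to 13.7 CPM and batch 1 from 3.05 to 6.05.

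When the 12 groups were ranked by mean CPM, each of the 11 neighbouring pairs lay within 1 SD for every member, which for neighbours in a ranking says nothing of the highest and lowest groups. Htr2c had the narrowest range of group means, from 91.8 ± 22.9 CPM in female D1 controls to 116 ± 50.1 in female D1-D2 controls, a ratio of 1.26. Htr1b ran from 28.7 ± 11.5 CPM in male D2 targeted mice to 41.5 ± 4.96 in female D1 controls, and Htr2a from 17.95 ± 3.95 in female D2 targeted mice to 36.1 ± 11.8 in male D2 controls.

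Among the Gs-coupled members, Htr4 ran from 10.1 ± 5.92 CPM in male D2 controls to 20.05 ± 6.86 in female D1 controls. Htr7 ran from 4.58 ± 0.976 CPM in male D1 targeted mice to 7.66 ± 4.23 in male D1-D2 controls, and Htr6 from 1.54 ± 0.659 in male D1 controls to 2.65 ± 0.839 in male D2 controls. Htr1a ran from 4.04 ± 2.36 CPM in male D1 targeted mice to 9.03 ± 6.86 in female D2 targeted mice. In these the ranges of the highest and lowest groups overlapped. Htr1f was the member whose highest group, male D2 controls at 9.22 ± 3.15 CPM, did not overlap its lowest, female D2 targeted mice at 3.47 ± 0.668, and 6 of the 8 male D2 controls belong to the second sequencing batch. The share of all genes with such a gap was not counted, so the gap does not set Htr1f apart from other genes.

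Libraries held between 12430387 and 69568367 counts (median 31393804). In 4 libraries, all with the Fosb guide, the 10 most abundant genes took over 90% of the counts: female D2 17907 and 18432, female D1-D2 19610 and male D1-D2 18919. Single receptors rest on very few counts there, such as 1 count of Htr4 in 19610. Of the libraries labelled female, 2 with the Fosb guide held Y-linked transcripts beside Xist. Summed over Ddx3y, Eif2s3y, Kdm5d and Uty, these stood at 79.9 CPM in D1 library 17376 and 85.5 in D1-D2 library 19749, against at most 21.2 in the other females and at least 127 in the males. The larger guide differences of these arms are given without them as well. Fosb, the targeted gene, was called in 0 of the 6 arms, with log2 differences between guides from −0.37 (SE 0.23) in female D2 to 0.60 (0.27) in male D1-D2 mice. Its group means ran from 4.51 ± 0.389 CPM in male D1 controls to 10.7 ± 5.04 in male D1-D2 targeted mice, and it was below its controls with the Fosb guide in both D2 arms, so its level gives no check of the guide labels. The labels do not say whether libraries of a group are separate mice, and the p-values measure the spread between these libraries.

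The tissue markers were present in every group. Drd1, the D1 dopamine receptor, had a mean of 254 CPM over the libraries and Drd2, the D2 receptor, 72.8, and Ppp1r1b and Penk, genes of medium spiny neurons, 350 and 582. Cortical glutamatergic markers were uneven: Slc17a7, the vesicular glutamate transporter of cortical neurons, ran from 2.26 to 764 CPM with a median of 24.8, and Emx1 was at 0 in 6 libraries. The mean log2 CPM of the 11 cortical markers is given below where it moved with or against a receptor.

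No receptor passed the test in any comparison of guides. The question was whether the Fosb guide altered the level of a serotonin receptor in any arm, and it was asked by edgeR's quasi-likelihood test with Benjamini-Hochberg adjustment over 25420 genes. A gene is called where its adjusted p is under 0.05. Of the 10 members 0 were called in each of the 6 arms, against 0.00393% of all genes in female D1 and in male D1-D2 mice, 0.0629% in male D2 mice and 0% in the other 3 arms. At an unadjusted p under 0.05, 2 members passed in female D1 mice (4.48% of all genes), 1 in female D2 mice (1.66%) and 0 in male D1 (7.11%), male D2 (2.18%), female D1-D2 (3.4%) and male D1-D2 mice (3.22%). By DESeq2 and by limma-voom 0 members were called in any arm as well. The count over all genes differed from that of edgeR. Limma-voom called 747 genes in male D1 and 194 in female D1-D2 mice, and DESeq2 called 4 in female D2 mice.

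Htr4, a Gs-coupled receptor, showed the largest difference of the 60 pairs of gene and arm. In female D1 controls its 8 values were 12.8, 12.9, 14.9, 18.7, 19.7, 24.2, 24.5 and 32.7 CPM, and with the Fosb guide its 6 values were 3.57, 5.52, 8.79, 13.5, 15.1 and 15.7. All 6 targeted libraries lay below the control median, 3 of them below every control, and the other 3 within the control range. The mean was 10.4 ± 5.14 against 20.05 ± 6.86 CPM, a log2 fold change of −0.95 (SE 0.34, 95% interval −1.63 to −0.27, unadjusted p = 0.00701 and adjusted p = 1 by edgeR). The cortical markers went the other way, with 10 of 11 above 0 and a mean log2 CPM of 1.48 (0.17 to 3.39) in controls and 3.46 (2.10 to 5.07) in targeted mice. The 5 cholinergic interneuron markers were 0 of 5 above 0, at 2.37 and 1.94. The part of either in the Htr4 value was not tested beyond the fit with cortical level as a covariate, which gave −0.60. Without library 17376 the value was −1.11.

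In the other female arms the log2 difference of Htr4 between guides was 0.17 (SE 0.31) for D2 and 0.17 (0.28) for D1-D2 mice, and in males it was −0.13 (0.39) for D1, −0.29 (0.34) for D2 and 0.11 (0.39) for D1-D2 mice. None of these intervals excluded 0, and the test of whether the 6 arms differ gave an unadjusted p of 0.149 by edgeR. Htr4 in male D1-D2 targeted mice was spread widest of all groups, with 9.90, 12.7, 14.4 and 34.8 CPM in the 4 libraries. The female D1 value of Htr4 was thus not shown to differ from that of the other arms.

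Htr7, the other Gs-coupled receptor with an unadjusted p under 0.05, differed in sign between arms. In female D2 mice controls ran from 4.30 to 6.64 CPM with a median of 5.06, and targeted mice from 4.57 to 10.6 with a median of 7.28. With the Fosb guide 7 of 8 libraries lay above the control median and 5 above every control, and the log2 fold change was 0.58 (SE 0.26, unadjusted p = 0.0253, adjusted p = 1 by edgeR). Libraries 17907 and 18432 of this group rest on 5 counts of Htr7 each, and the value was 0.67 without the 4 libraries of low complexity. In the same comparison 7 of 8 tested septal and hypothalamic markers were above 0 (median 0.62) and 0 of 11 cortical markers (median −1.08). With the cortical level as a covariate the Htr7 value was 0.58. The part of the septal and hypothalamic markers was not tested.

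In female D1 mice Htr7 ran from 3.04 to 13.1 CPM in controls (median 6.64) and from 3.65 to 7.03 in targeted mice (median 4.48), with a log2 fold change of −0.57 (SE 0.27, unadjusted p = 0.0401, adjusted p = 1 by edgeR). The targeted range lay inside the control range. The value was −0.53 without library 17376, and −0.26 with the level of choroid plexus markers as a covariate. In male D1 mice the 4 controls stood at 5.397, 5.67, 6.57 and 8.43 CPM and the targeted mice at 3.43 to 6.31, with 6 of 7 below every control and a log2 fold change of −0.51 (SE 0.31).

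The remaining Htr7 values were −0.42 (SE 0.26) in male D2, −0.21 (0.23) in female D1-D2 and −0.38 (0.33) in male D1-D2 mice. The last was −0.04 with the choroid plexus covariate and −0.61 without targeted library 17728. In male D2 mice the value was −0.91 (SE 0.32) within sequencing batch 1 and −0.12 (0.20) within batch 2. Averaged over the 6 arms with equal weight, Htr7 differed by −0.25 (SE 0.11, unadjusted p = 0.0296, adjusted p = 0.518 by edgeR). The arms differed from each other at an unadjusted p of 0.0293 and an adjusted p of 1. Htr7 was the 1 member with an unadjusted p under 0.05 in each of these tests, against 9.52% and 2.23% of all genes, and 0 members were called in either, against 0% and 0.00787%.

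Htr6, the third Gs-coupled member, is found mainly in striatum and was low throughout. Its log2 difference between guides ran from −0.32 (SE 0.26) in female D2 to 0.37 (0.32) in male D1 mice.

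**Figure D2:**
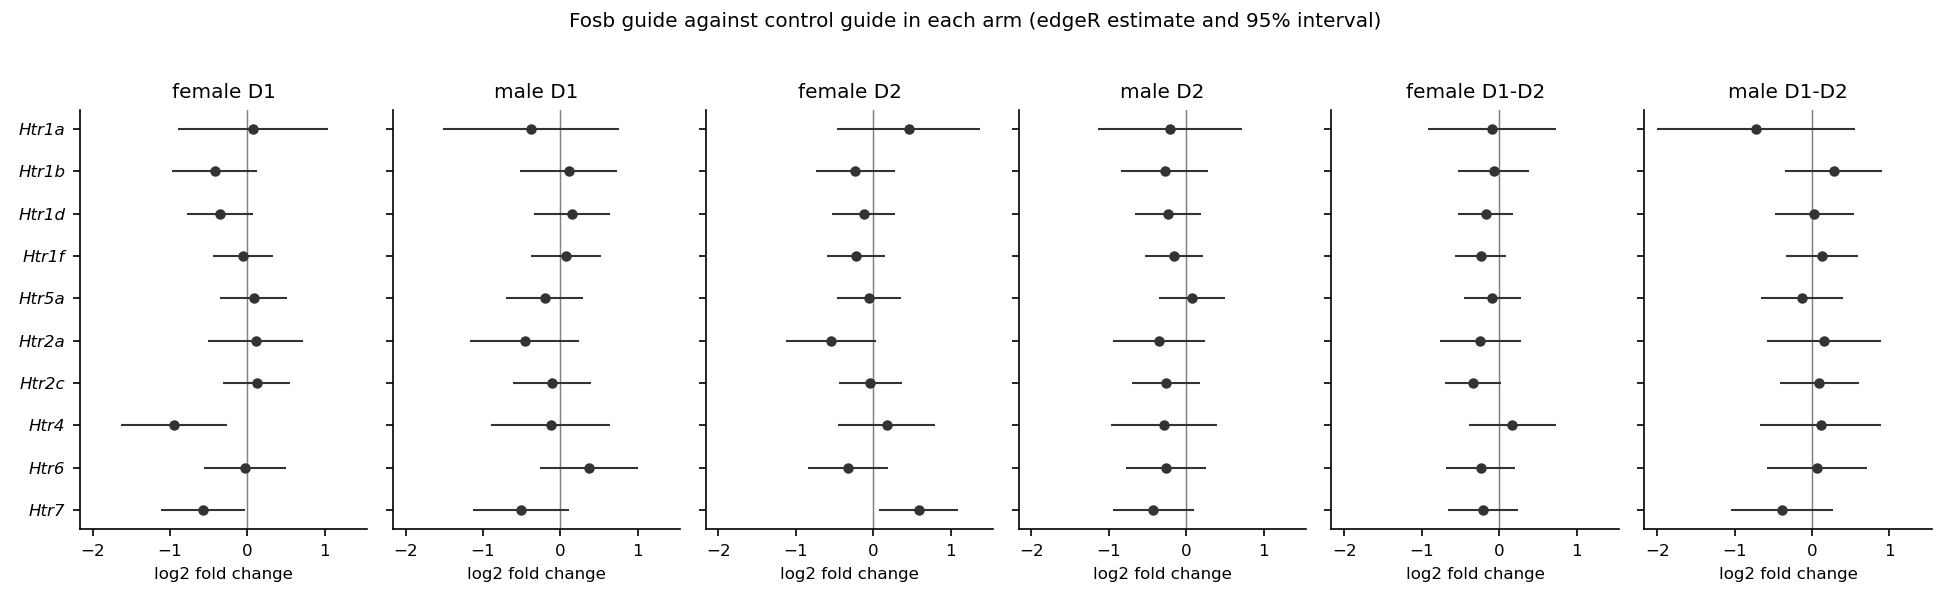
Each panel is 1 arm, with the log2 fold change of the Fosb guide against the control guide on the x axis and the receptors on the y axis. Points are edgeR estimates and bars 95% intervals. The bars exclude 0 for Htr4 (−0.95) and Htr7 (−0.57) in female D1 mice and for Htr7 (0.58) in female D2 mice, before any adjustment.

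Among the Gi/o-coupled receptors Htr1d and Htr1b came closest, both in female D1 mice. Htr1d ran from 5.28 to 14.7 CPM in controls (median 6.74) and from 4.82 to 8.26 in targeted mice (median 5.81), with 2 of 6 targeted libraries above the control median and 2 below every control. Its log2 fold change was −0.36 (SE 0.21, unadjusted p = 0.0987 by edgeR), and −0.40 without library 17376. For Htr1b, controls ran from 33.5 to 47.8 CPM (median 42.5) and targeted mice from 25.8 to 38.4 (median 28.9), with 0 of 6 targeted libraries above the control median and 4 below every control. The log2 fold change was −0.43 (SE 0.27, unadjusted p = 0.125 by edgeR), −0.47 without library 17376 and −0.09 with the cortical level as a covariate. Htr1b differed by 0.11 (SE 0.32) in male D1 mice and by 0.28 (0.32) in male D1-D2 mice. Without control 18383 the first was −0.01, and without targeted library 19211 the second was 0.03.

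Over the 6 arms the mean log2 difference was −0.10 (SE 0.11) for Htr1b, −0.14 (0.21) for Htr1a, −0.12 (0.09) for Htr1d, −0.08 (0.08) for Htr1f and −0.05 (0.09) for Htr5a. None of these 95% intervals excluded 0. For Htr1f edgeR's test gave an unadjusted p of 0.933, which does not match the SE printed here. The reason was not established, so that SE and interval are uncertain. The widest interval of all 60 belonged to Htr1a in male D1-D2 mice, −0.72 with bounds of −1.996 and 0.56, which leaves a large difference in either direction undetected at this number of libraries. The mean of Htr1f ran from −0.13 to −0.01 over the alternatives.

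The Gq-coupled Htr2a ran from 13.4 to 50.1 CPM in female D2 controls (median 23.5) and from 10.3 to 22.4 in targeted mice (median 18.8). No targeted library lay above the control median, and 4 of the 8 controls lay inside the targeted range. The log2 fold change was −0.54 (SE 0.29, unadjusted p = 0.068 by edgeR), and −0.30 with the cortical level as a covariate. Its mean over the 6 arms was −0.22 (SE 0.13), and −0.12 without male D1 control 18383. In male D2 mice it differed by −0.35 (SE 0.30), by −0.98 within batch 1 and by 0.04 within batch 2.

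Htr2c, the most abundant receptor, was also among the least variable, and its mean difference over arms was −0.09 with a 95% interval of −0.27 to 0.09. Its largest value was −0.34 (SE 0.18) in female D1-D2 mice, and −0.33 without library 19749. That interval excludes a mean difference of Htr2c in whole tissue beyond 0.27 on the log2 scale.

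Genes downstream of the receptors were read from lists of 8 Gi/o, 11 Gs and 9 Gq coupling genes and 14 regulators and partners. Of these lists 0 genes were called in any of the 6 arms, and their median log2 differences ran from −0.20 (Gs coupling in female D1-D2 mice) to 0.33 (Gs coupling in male D1 mice). The median over all genes lay between −0.0263 and 0.0298. Adcy5, the adenylyl cyclase of striatal neurons, and Adarb1 were among the genes that did not pass.

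Serotonin receptor levels were next compared among all 12 groups at once. Here 0 of 10 members were called, against 16.4% of all genes, and 2 members had an unadjusted p under 0.05, against 28.3%. These were Htr7 (p = 0.0463, adjusted p = 0.168) and Htr2a (p = 0.0483, adjusted p = 0.172), both by edgeR. With limma-voom the adjusted p was 0.0257 for Htr5a and 0.0448 for Htr2a, and with the cortical level as a covariate it was 0.0225 for Htr1a. Without the batch term Htr1f was called at 5.57e-07. Over all genes, the alternatives called between 3236 and 12419, the latter without the batch term, against 4173 in the main fit.

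Among controls, 3 comparisons were made, of sex, of Cre strain and of virus type. They share control groups with each other and with the comparisons of guides. Female controls were higher than male controls by 0.34 (SE 0.14, adjusted p = 0.0522) for Htr1d, 0.40 (0.17, 0.0643) for Htr6 and 0.31 (0.14, 0.0798) for Htr5a, on the log2 scale by edgeR. None of the 10 members was called, against 28.6% of all genes, and 3 had an unadjusted p under 0.05, against 39.8%. Left out one at a time, the 4 male D1 controls moved this count of called members between 0 and 2. Without control 18383 Htr5a stood at 0.42 (adjusted p = 0.0187) and Htr6 at 0.50 (0.0256), and without control 18068 the adjusted p of Htr1d was 0.0455. With the choroid plexus level as a covariate Htr1d and Htr6 were called as well, at adjusted p of 0.0235 and 0.0345. Over all genes, the alternatives called between 5681 and 8289 in this comparison.

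While no receptor was called between sexes, some genes of their signalling were. The counts of called genes stand against 28.6% called among all genes. Of the Gs coupling list 7 of 11 were higher in females and 0 lower, among them the adenylyl cyclases Adcy5 (0.65) and Adcy3 (0.54), the striatal Gs-type subunit Gnal (0.42) and the kinase subunit Prkaca (0.31). Of the Gq list 5 of 9 were higher, led by the inositol phosphate receptor Itpr1 (0.69), and 0 lower. Of the regulators 6 of 14 were higher and 0 lower, including the receptor kinase Grk2 (0.41), the arrestin Arrb1 (0.44) and the RNA-editing enzymes Adarb1 (0.48) and Adar (0.37). The list medians were 0.42, 0.28 and 0.34, where the median over all genes was 0.0016.

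The Gi/o list held 1 called gene of 8, Gnao1 (0.49), and the list of serotonin synthesis, transport and breakdown 1 of 8, the oxidase Maob (0.33), both shares below the 28.6% of all genes. Cholinergic interneuron markers were higher in females at 4 of 5, with Slc18a3 at 0.84 and Chat at 0.63. Medium spiny neuron markers were higher at 3 of 10, a share near that of all genes. The medium spiny list shares Adcy5, Pde10a and Ppp1r1b with the Gs list and Rgs9 with the regulators. Its mean log2 CPM was 7.71, 7.58 and 7.83 in female D1, D2 and D1-D2 controls. In male controls it was 7.17, 7.84 (7.50 within batch 1) and 7.37. The part of either marker list in the coupling genes was not tested. All male D2 controls but 2 are in batch 2, and the model removes a batch difference that is estimated within male D2 mice.

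Between strains, D2-Cre controls differed from D1-Cre controls in 0 of 10 members, against 0.0118% of all genes, and 0 had an unadjusted p under 0.05, against 2.56%. The largest value was −0.28 (SE 0.25) for Htr2a. Between virus types in the D1-Cre strain, 0 of 10 members were called, against 4.64% of all genes, and 0 had an unadjusted p under 0.05, against 23.2%. Htr4 had the largest value, −0.36 (SE 0.25) for Cre-independent against Cre-dependent controls. In the second of these comparisons Gnao1 (0.58, adjusted p = 0.0384), Adarb1 (0.45, 0.0463) and Arrb1 (0.37, 0.0472) were higher with Cre-independent virus, by edgeR. These calls depend on the model. Over all genes 1180 were called here, but 1 without the batch term and 7468 by limma-voom.

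Sequencing batch gave the one comparison in which receptors were called. Within male D2 mice, 9 libraries belong to batch 2 (6 control, 3 targeted) and 6 to batch 1 (2 control, 4 targeted), and the batch term of the model compares them at equal guide. Of the 10 members 5 were called, against 62.3% of all genes, so the share of receptors was not above the background. Htr1f was higher in batch 2, with a log2 difference of 1.37 (SE 0.20, adjusted p = 7.53e-09 by edgeR), at 10.8 ± 2.08 against 4.10 ± 1.05 CPM, and all 9 libraries of batch 2 lay above all 6 of batch 1. How many of all genes separate the batches in this way was not counted.

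Htr5a was higher in batch 2 by 0.98 (adjusted p = 8.52e-05), at 10.8 ± 4.74 against 5.51 ± 1.18 CPM, with 8 of 9 libraries above every library of batch 1. Htr2a was higher by 0.81 (adjusted p = 0.0200) and Htr1a by 1.19 (0.0310). Htr4 was lower, at 7.44 ± 3.72 against 15.1 ± 5.31 CPM, a log2 difference of −1.12 (0.00342). Htr6 (0.58, adjusted p = 0.0570), Htr1d (0.40, 0.106), Htr1b (0.14), Htr2c (−0.15) and Htr7 (−0.21) did not pass.

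Cortical markers stood higher in the same libraries, at a mean log2 CPM of 3.84 (1.11 to 5.50) in batch 2 and 1.40 (0.31 to 3.79) in batch 1, and GABAergic interneuron markers at 3.94 against 2.89. With the cortical level as a covariate the batch difference was 1.10 for Htr1f (adjusted p = 1.01e-06) and 0.47 for Htr5a (0.0164). It was 0.08 for Htr2a (0.782), −0.62 for Htr4 (0.0770) and −0.03 for Htr1a (0.948), the last with its sign turned. At equal cortical level Htr1f and Htr5a were thus still called, among 15280 of all genes, and the value of Htr1a was near 0. Batch and the mice sequenced in it cannot be told apart.

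**Figure D3:**
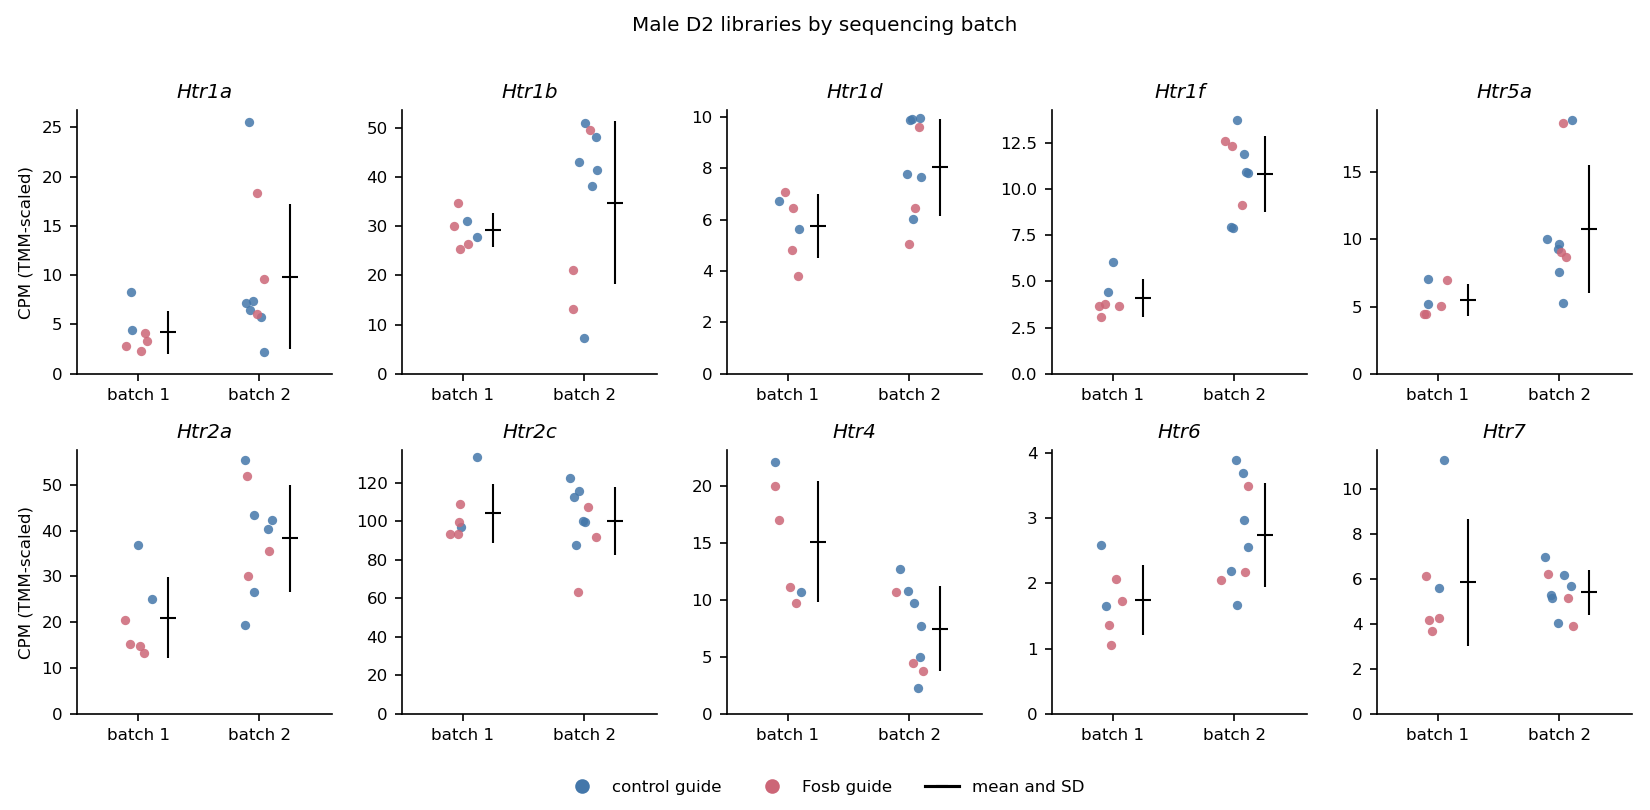
Each panel is 1 receptor in the male D2 libraries, with sequencing batch on the x axis and TMM-scaled CPM on the y axis from 0. Points are libraries coloured by guide and bars are mean and SD. Htr1f in batch 2 (7.89 to 13.7 CPM) does not overlap batch 1 (3.05 to 6.05), while Htr2c overlaps at 63.2 to 122 and 93.2 to 133.

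Across libraries the receptors fell into sets that varied together. For this, the mean of each group and batch was taken out of the log2 CPM, so only differences among libraries of the same group remained, and 175 relations were computed, of members with each other and with 13 marker lists. After Benjamini-Hochberg adjustment of two-sided permutation p-values, 80 of the 175 passed, all of those named here included. The smallest p that 100000 resamples can give, 1e-05 (adjusted 6.48e-05), was reached by both pairs of receptors described first. All points share the count table and the scaling between libraries.

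Htr1a and Htr5a, both Gi/o-coupled, varied together (Pearson's r 0.76, Spearman's rho 0.72, 0.74 without the 2 libraries farthest from the median). Within batch 1 r was 0.73 and within batch 2 it was 0.96. Htr1a followed the GABAergic interneuron markers (r 0.81, rho 0.78) and the cortical markers (0.73, 0.68), and Htr5a followed the same lists (0.80 and 0.69). Htr2a joined them, with r of 0.74 to cortical and 0.73 to GABAergic markers and 0.63 to Htr5a. The GABAergic list holds Cck, Sst, Vip and Npy, which the cortex expresses too.

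Htr1b and Htr1d formed the second set (r 0.68, rho 0.69, 0.65 without the 2 farthest libraries, 0.72 in batch 1 and 0.76 in batch 2). Both followed the medium spiny neuron markers, at r 0.68 (rho 0.58) and 0.65 (rho 0.60). Htr1b also followed the markers of D1 neurons (0.69), cholinergic interneurons (0.60) and D2 neurons (0.51). In the same order r was 0.54, 0.43 and 0.37 within batch 1 and 0.99, 0.98 and 0.97 within batch 2. Without the 2 farthest libraries it was 0.59, 0.48 and 0.39. Htr1a and Htr1b went in opposite directions, with r of −0.60 (rho −0.55, batch 1 −0.56, batch 2 −0.84). The male D2 control 3631 was the extreme case, with the highest Htr1a of all libraries at 25.6 CPM and the lowest Htr1b at 7.29.

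**Figure D4:**
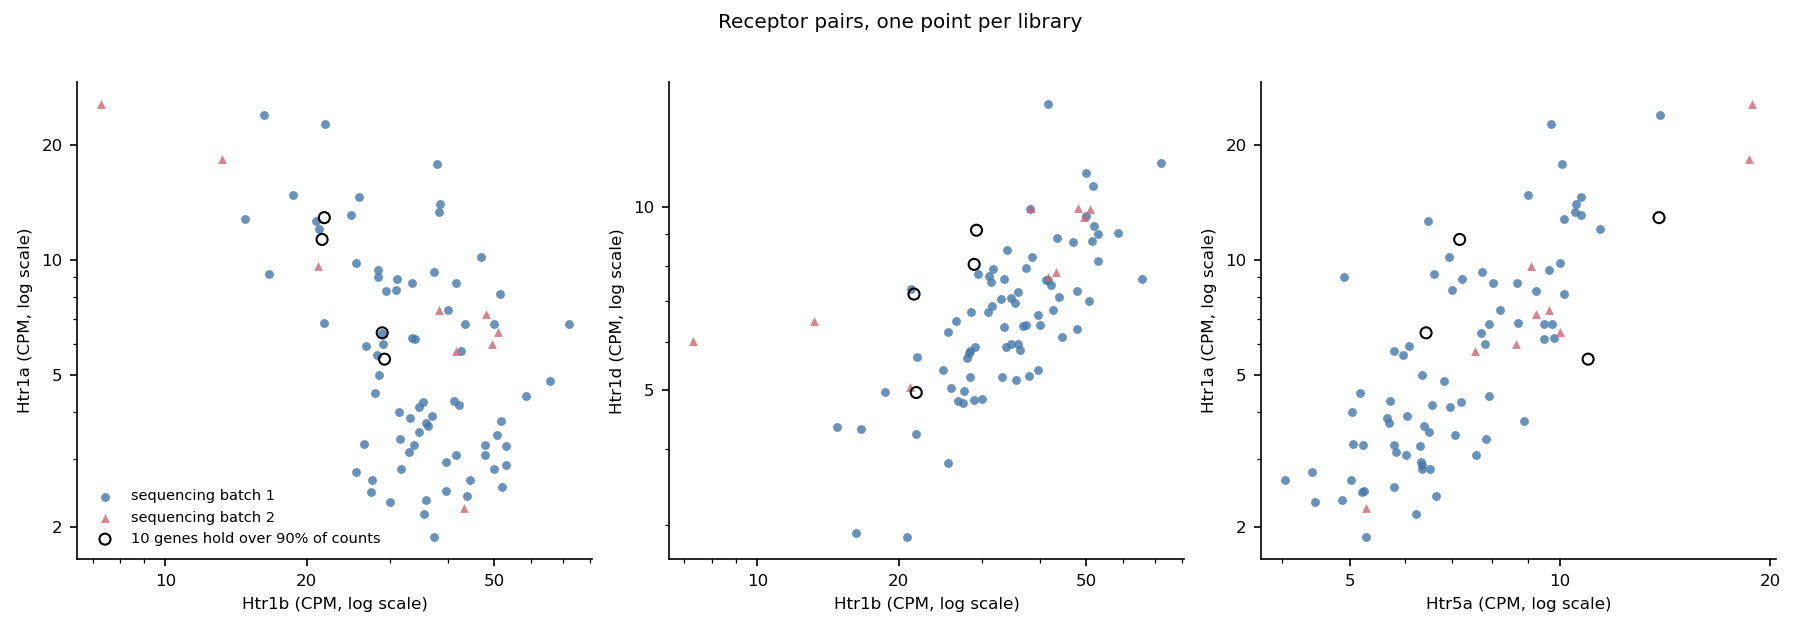
Each point is 1 library, with TMM-scaled CPM of a receptor on each log axis, circles for sequencing batch 1, triangles for batch 2 and open circles for the 4 libraries of low complexity. Libraries with high Htr1b have low Htr1a (r −0.60) and high Htr1d (0.68), and those with high Htr5a have high Htr1a (0.76), each r after group and batch means were taken out.

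Htr2c followed the D2 neuron markers over all libraries (r 0.60, rho 0.70) and within batch 1 (0.68), but not within the 9 libraries of batch 2 (−0.04). Its r was 0.51 with the medium spiny markers and 0.48 with the D1 neuron markers. It went against the endothelial markers (−0.58) and microglial markers (−0.57). Htr4 followed the cholinergic interneuron markers (r 0.53, rho 0.47, batch 1 0.46, batch 2 0.84) and went against the cortical markers (−0.48). Htr7 followed the septal and hypothalamic markers (r 0.68, rho 0.61, batch 1 0.68, batch 2 0.94). Its relation to the medium spiny markers was −0.50 over all libraries, −0.62 in batch 1 and 0.72 in batch 2, so it held in batch 1 and turned in the 9 libraries of batch 2. Htr6 had an r of 0.44 (rho 0.16) with the raphe markers, which was 0.13 without the 2 farthest libraries, so it rests on those.

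**Figure D5:**
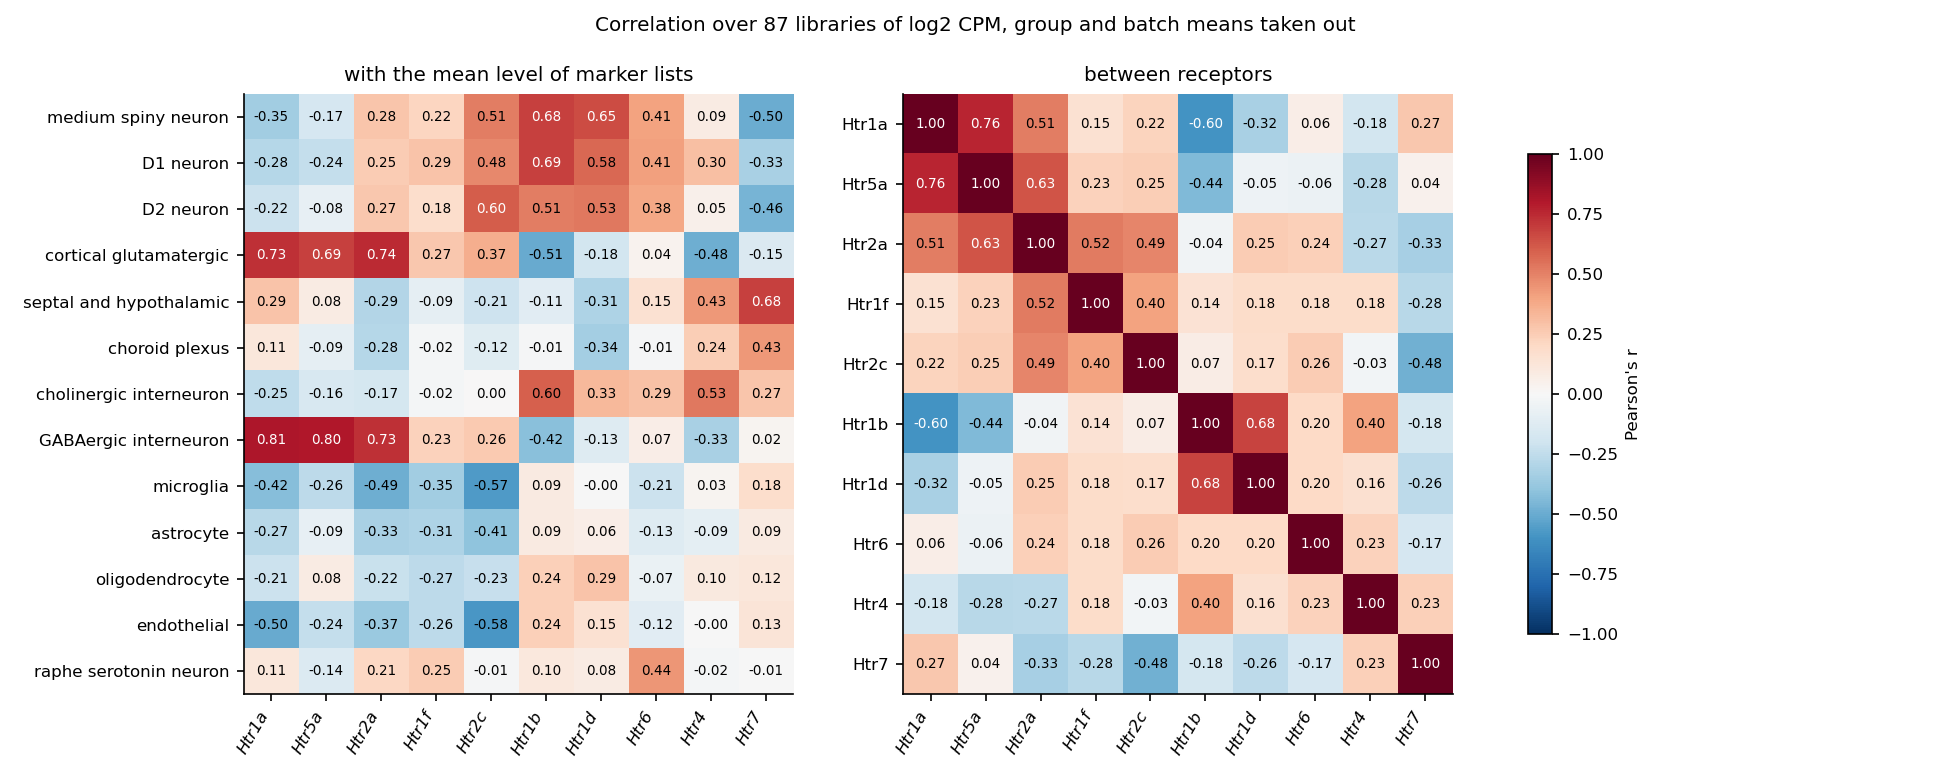
The left heatmap gives Pearson's r of each receptor (columns) with the mean level of each marker list (rows), and the right heatmap r between receptors, over 87 libraries with group and batch means taken out. Colour runs from −1 (blue) to 1 (red). Htr1a, Htr5a and Htr2a share high values with the cortical and GABAergic lists (0.69 to 0.81), and Htr1b and Htr1d with the medium spiny list (0.68 and 0.65).

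The genes whose pattern over libraries was most like each receptor were sought by the same correlation. Of the 17276 genes with a mean of at least 1 CPM, only those with an established name were taken. For Htr1a they were Vsnl1, Stmn2 and Elavl4 (r 0.93 each), all genes of neurons at large. For Htr5a they included Nptxr and Ube2ql1 (0.88 each), and for Htr2a Sgtb and Dclk1 (0.89 each) and Snap25 (0.88). For Htr1b they were Kcnj2 and Stk32a (0.88 each) and Ano2 (0.87), and for Htr1d they included Rgs4 (0.76), a regulator of G protein signalling, and Camk4 (0.75).

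For Htr2c they were Mpped2 (0.83, but 0.10 in batch 2), Lrrn3 (0.83) and Lin7a (0.82). For Htr4 they were the neuropeptide gene Nts (0.82), the adrenergic receptor gene Adra2b (0.79) and Dgkk (0.68). The r values of Htr7 were lower, with Snx8 (0.68), Adpgk (0.67) and Tmem200a (0.66, and −0.68 in batch 2). Htr1f was likest to Hectd2 (0.70), Usp45 (0.68) and Cul5 (0.66), which gave 0.48, −0.06 and −0.01 within batch 2. For Htr6, the genes Lenep and Dhrs13os reached 0.83 and 0.82, but 0.59 and 0.58 without the 2 libraries farthest from its median.

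Other genes of serotonin were also in the table. Of the receptors outside the 10, Htr3a, a channel subunit, had a mean of 1.80 CPM, Htr2b 0.885 and Htr5b 0.401, while Htr3b, at 0 in 44 libraries, was removed by the filter. Maoa (37.4 CPM) and Maob (19.8), which break serotonin down, were the most abundant genes of its handling, before Ddc (9.45) and Slc18a2 (4.73), which dopamine neurons use too. Tph2, the synthesizing enzyme of raphe neurons, stood at 0.779 CPM and the transporter Slc6a4 at 0.110. Fev, the transcription factor of serotonin neurons, was at 0 in 74 of 87 libraries.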

How the data were processed

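The authors deposited whole-number counts of reads per gene, with no normalization, from TruSeq stranded, ribosomal RNA-depleted total RNA. Trim Galore, SAMtools, HISAT2, Subread's featureCounts, DESeq2 1.27 and mm10 are listed, per the submitters' processing notes. The annotation and the strand setting of the counting were not given in the sources used. Of 88 labelled samples 87 matched a column by the number in their titles, and 1 column of no labelled sample was not used. Gene symbols were found for all but 93 identifiers, and positions are from GENCODE on mm10.

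A robust quasi-likelihood model of 12 groups plus sequencing batch was fitted in edgeR 4.0.16 under R 4.3.3, with TMM scaling and filterByExpr by group, which left 25420 genes. Benjamini-Hochberg adjustment ran over these genes at a threshold of 0.05. The script was tested on simulated data. Replicate numbers are not shared between groups, so samples were not paired. Correlations used log2 CPM with a prior count of 2. Named genes were all members, up to 4 called genes a list and the 3 genes most like each member, some of which are not reported here. The members, gene lists and tests were chosen with earlier results of these data known. Alternatives used DESeq2 1.42.0, limma 3.58.1, other filters, covariates and sets of libraries.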

Additional observations from a re-analysis of the deposited data

Results flagged for a closer look

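Of 110 sets of 1 receptor in 1 group of 4 to 10 libraries, 17 held a library set far apart from the rest by Dixon's criterion. Independent values of a normal distribution meet it in about 1 of 20 sets. CPM are not such values, as Htr1a had an SD of 71.4% of its mean. Receptors of the same library are not independent either, so the 17 cannot be set against that share. The 17 fell on 13 libraries, values in CPM. Among libraries with high cortical markers (mean log2 CPM over 4, median of all libraries 1.70), male D1 control 18383 was high in Htr1a (13.04, next 3.264), Htr1f (5.911) and Htr5a (10.73). Male D2 control 3631 was high in Htr1a (25.55, next 8.339) and Htr5a (18.87), with cortical markers at 5.50, cholinergic markers at −0.77 and Htr4 at 2.24. Male D2 targeted 3632 was high in Htr5a (18.63), female D2 control 17906 in Htr1a (23.87, next 8.28), male D1 targeted 18368 in Htr1a (9.168) and female D1-D2 control 19754 in Htr2a (64.8, next 39.26). Male D2 targeted 2756 was low in Htr2c (63.16, next 91.91).

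The other libraries had cortical levels between 0.62 and 3.25. Female D2 control 17910 was high in Htr2c (133.8, next 99.69) and Htr6 (4.276), and female D1 control 19755 in Htr6 (4.592). Female D1 targeted 17435 was low in Htr6 (1.231). Female D1 control 17457 was high in Htr1d (14.74, next 8.871) and male D2 control 19099 in Htr7 (11.3). Female D2 targeted 17907, one of the libraries of low complexity, was low in Htr1f (2.052), on 2 counts.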

How the results depend on the processing

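In the comparisons of guides, 0 members were called under any alternative, and the lowest adjusted p of a member was 0.1355. Among 670 fold changes under alternatives 42 had another sign than the reported value, in 24 of 60 pairs of gene and arm. For the 12 groups, where 0 members were called, 2 were called with limma-voom, 1 without the batch term and 1 with the cortical covariate. Between sexes, 1 was called with the cortical covariate (Htr1d, adjusted p = 0.0390), 2 with the choroid plexus covariate, and 0 to 2 when a library of a group of 4 was left out. Without the batch term 1 was called between Cre strains (Htr1f, 0.56, adjusted p = 0.0134). For batch, 2 rather than 5 were called with the cortical covariate, chosen after seeing the data, where Htr1a turned to −0.0327. Htr6 passed there with the choroid plexus covariate (adjusted p = 0.0492) and without the 4 libraries of low complexity (0.0378). The cause of these changes was not tested. They stand against high counts over all genes. The alternatives called 3236 to 12419 genes among the 12 groups and 5681 to 8289 between sexes. For batch, 15280 genes were called with the cortical covariate. No paired analysis was possible because the groups share no replicate numbers.

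Counts over all genes moved more. Without the batch term they were 427 rather than 16 in male D2 mice, 12419 rather than 4173 among groups, 8704 rather than 3 between strains and 1 rather than 1180 between virus types. With limma-voom they were 747 and 194 rather than 0 in male D1 and female D1-D2 mice and 7468 rather than 1180 between virus types. The number of libraries, and in 4 of them the low counts, limit what can be seen.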
